A study of Mus musculus with 42 samples.

Results

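The cadherins and the regulators of the epithelial to mesenchymal transition (EMT) were followed through the differentiation of mouse embryonic stem cells (mESCs) into anterior definitive endoderm (ADE). The 10 genes were Cdh1, Cdh2, Cdh11, Snai1, Snai2, Zeb1, Zeb2, Twist1, Vim and Epcam. They were chosen by name, each was found through the RefSeq accession that the array annotation gives for its probes, and the probe that was brightest on average over all 42 arrays stands for the gene. All 10 were found among 22278 genes with a RefSeq accession. Total RNA was measured on Agilent one-colour arrays, with 3 replicate arrays for each of 14 groups. All cells were of a dual reporter mESC line that carries fluorescent reporters in the Gsc and Hhex loci, where Gsc marks the primitive streak and mesendoderm and Hhex marks definitive endoderm. The untreated groups were ESCs grown with LIF, unsorted day 2 (d2) cells, and sorted populations that were Gsc negative or positive at d3 and d4 (G-, G+), Gsc negative, low or high at d5 (G-, Glow, Ghigh), and Gsc high without or with Hhex at d6 (G+H-, G+H+). The remaining groups were d6 cells of cultures that received DMSO before and during differentiation (Control), the EZH2 inhibitor EPZ6438 at 2.5 μM before differentiation and DMSO during it (ES_EPZ), or DMSO before and 2.5 μM EPZ6438 during differentiation (ADE_EPZ). The labels of these cultures name no sort. The labels number the replicates without saying whether each came from its own culture, so p values measure the spread between these arrays. That spread may in part be technical, although the study describes its expression data, untreated and under EPZ6438, as means of 3 independent replicate experiments.

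Cadherins are calcium-dependent adhesion molecules of the cell surface. E-cadherin (Cdh1) joins epithelial cells, including the epiblast, and at the primitive streak cells lose it, gain N-cadherin (Cdh2) and move through the streak as mesenchyme, a change known as EMT. The zinc finger repressors of the Snail and ZEB families bind E-box sequences in the promoters of epithelial genes such as Cdh1, Twist1 is a basic helix-loop-helix factor of mesoderm and of EMT, and vimentin (Vim) is an intermediate filament protein of mesenchymal cells. Definitive endoderm passes through the streak and becomes an epithelium again.

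Promoter windows of RefSeq genes (GRCm38.p6, 250 bases before to 50 bases after the start of the transcript) were at hand for 5 of the 10 genes, namely Epcam, Snai1, Twist1, Vim and Zeb2, of which Zeb2 had 4. They were searched for the E-box CAGGTG, which reads CACCTG on the opposite strand. Epcam held it 2 times, with first bases at -187 and -19 from the start, and Snai1 held it 1 time, at -126. The windows of Twist1, Vim and Zeb2 did not hold these letters. Of all 32851 windows of this length, 20.2% held the motif and 2.88% held it 2 or more times. A match is a description of the sequence and not evidence of binding. The 250 bases before the start are shown for the pair of genes with a match, 1 an epithelial surface gene and 1 a Snail gene, both on the plus strand at chr17:87635729-87635978 and chr2:167537945-167538194, with the motif in capitals.
Epcam: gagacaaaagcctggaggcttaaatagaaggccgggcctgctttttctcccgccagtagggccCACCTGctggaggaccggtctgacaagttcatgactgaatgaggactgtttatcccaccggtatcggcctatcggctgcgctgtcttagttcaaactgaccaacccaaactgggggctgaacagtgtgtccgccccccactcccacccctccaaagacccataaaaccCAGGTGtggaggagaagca
Snai1: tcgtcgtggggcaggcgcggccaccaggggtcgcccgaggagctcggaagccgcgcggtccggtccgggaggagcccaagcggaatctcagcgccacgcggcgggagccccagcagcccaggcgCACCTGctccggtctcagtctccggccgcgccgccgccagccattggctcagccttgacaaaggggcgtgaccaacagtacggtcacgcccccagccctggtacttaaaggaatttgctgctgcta

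The mean log2 intensity of 7 pluripotency markers lay between 13.06 and 13.81 on the ESC arrays and between 7.69 and 8.03 on those of d6 G+H+. The mean of 6 definitive endoderm markers lay between 5.73 and 5.76 in ESCs, where Sox17, Cer1 and Cxcr4 were not above background, and between 12.84 and 13.15 in d6 G+H+. The definitive endoderm list holds Hhex, by whose reporter the d6 G+H+ cells were sorted. Between 25884 and 40394 probes were well above background on the untreated arrays and between 24446 and 34788 on the EPZ6438 arrays. Replicates 1 and 2 of the untreated groups were on 3 slides and replicate 3 on 2 others. The 3 d5 arrays of replicate 3 stood apart from replicates 1 and 2 in most of the 10 genes. For comparisons that use d5 arrays, calls that changed when all 3 were left out are given with their values. In such bulk samples fewer cells of a type and less RNA per cell cannot be told apart.

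Across the 10 comparisons of a differentiating population with ESCs, 41 of the 100 gene by comparison pairs passed the thresholds, against 6.08% of all such pairs on the array. A gene was called at an adjusted p of at most 0.01 (limma, Benjamini-Hochberg over all probes) and an absolute log2 difference of at least 1.5. At d2 0 members were called, with 1.64% called over all genes, although 4 members had an unadjusted p under 0.05, namely Cdh2 (0.52), Twist1 (0.66), Snai1 (-0.72) and Vim (-0.84). The share of all genes with an unadjusted p under 0.05 was not computed, here or below. Such counts of members therefore have no background beside them, and the percentages given are those of the call rule. The G+ populations of d3 and d4 had 6 and 8 members called, where 6.37% and 7.14% of all genes were called. The d3 G- and d4 G- populations had 1 and 4 members called, with 2.32% and 3.12% over all genes. At d5 5 members were called in G- (4.2% of all genes), 9 in Glow (7.47%) and 5 in Ghigh (7.9%). At d6 2 members were called in G+H- and 1 in G+H+, with 9.86% and 10.8% of all genes called. The number of members called was thus highest in d4 G+ and d5 Glow, while the share of all genes called was highest at d6. The calls by which a member fell below ESCs were those of Cdh1 in d4 G+ and d5 Glow and of Epcam in d5 Glow. All 10 comparisons share the ESC arrays. Where 3 levels of a population are given, they are in the order of replicates 1, 2 and 3.

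**Figure D1:**
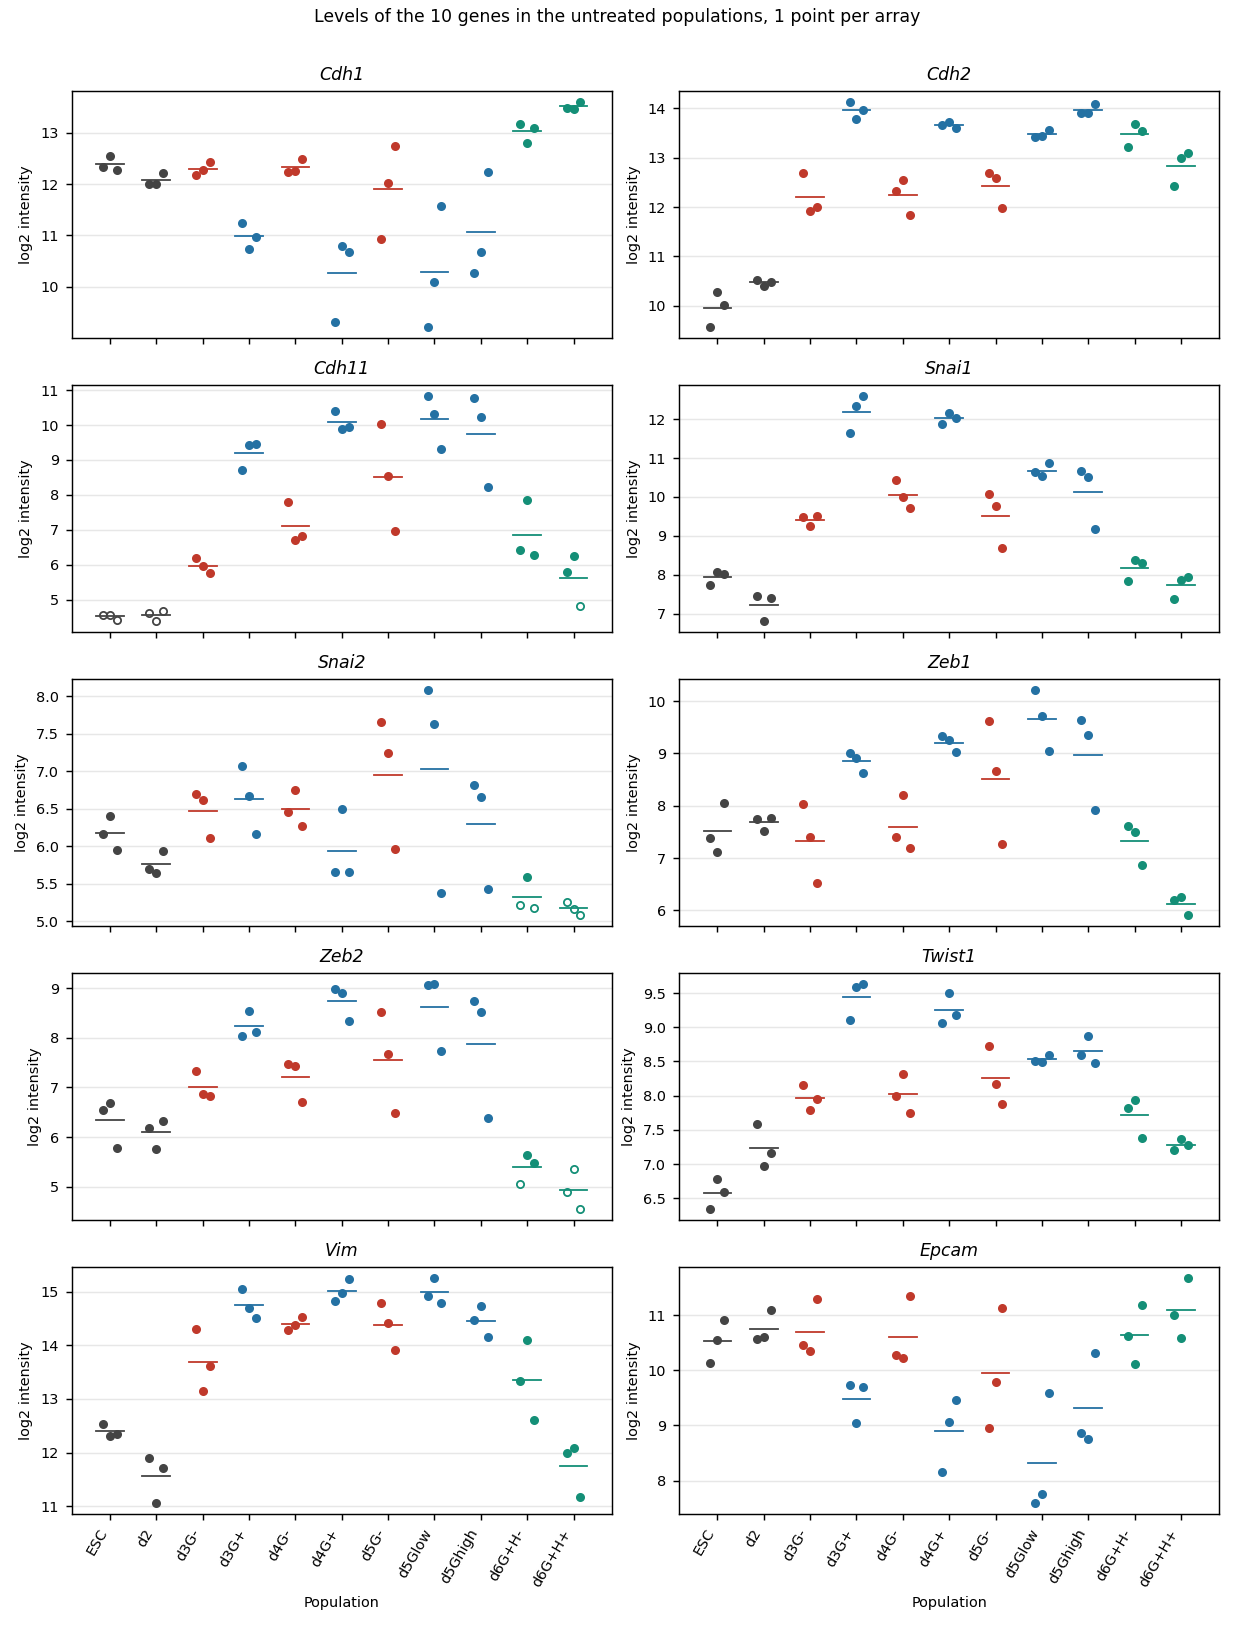
Log2 intensity of each of the 10 genes (vertical axis) on every array of the 11 untreated populations (horizontal axis), with a line at the mean of the 3 arrays and open circles for arrays not well above background. Cdh1 and Epcam were lowest in the Gsc-positive populations of d3 to d5 and highest in d6 G+H+, where Zeb1 and Zeb2 were at their lowest means of 6.13 and 4.94.

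Cdh1 encodes E-cadherin, the main adhesion molecule of the epiblast and of epithelial endoderm. Its log2 intensity was 12.33, 12.55 and 12.27 on the ESC arrays, 11.24, 10.74 and 10.96 in d3 G+, and 9.30, 10.80 and 10.68 in d4 G+. In d6 G+H+ it was 13.48, 13.47 and 13.60, above every array of every other untreated population. The G- populations of d3 and d4 had means of 12.29 ± 0.13 and 12.32 ± 0.14 (SD, n = 3) and overlapped the ESC arrays, whereas both G+ populations lay wholly below them. The difference from ESCs was -1.4 at d3 G+, under the threshold of size, and reached -2.13 ± 0.44 (SE) at d4 G+ with an adjusted p of 0.000374 and -2.09 ± 0.44 at d5 Glow with 0.000448. Without d4 G+ replicate 1 the former was -1.65 with an adjusted p of 0.0107, and without d5 Glow replicate 1 the latter was -1.56 with 0.0135, and with the compared groups alone in the fit its adjusted p was 0.0302. In d5 Ghigh the difference of -1.33 was not called, and it was -1.92 with an adjusted p of 0.00133 without the array of replicate 3.

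Epcam encodes a surface glycoprotein of epithelia and of pluripotent cells. It was measured at 10.13, 10.55 and 10.91 in ESCs, at 8.16, 9.06 and 9.47 in d4 G+, and at 7.60, 7.76 and 9.58 in d5 Glow. The arrays of d4 G+ and of d5 Glow lay below all 3 ESC arrays. The d6 G+H+ population was at 11, 10.59 and 11.67, around and above the ESC arrays. Epcam fell in d5 Glow by 2.21 on the log2 scale (adjusted p = 0.000664), a call that was lost without replicate 1 of d5 Glow (-1.86, adjusted p = 0.0115) and with the compared groups alone (adjusted p = 0.0212). The d4 G+ difference of -1.63 was not called. It was called with the replicate number as a block (adjusted p = 6.3e-05) and without d4 G+ replicate 3 (-1.92, adjusted p = 0.00936). Same-numbered arrays deviated together in this comparison.

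Cdh2 encodes N-cadherin. Its 3 arrays were at 9.58, 10.28 and 10.01 in ESCs and at 10.52, 10.41 and 10.49 in d2, and they rose to 12.69, 11.93 and 12.00 in d3 G- and to 14.13, 13.78 and 13.97 in d3 G+. At d6 they were at 13.21, 13.69 and 13.55 in G+H- and at 12.42, 12.99 and 13.10 in G+H+. No population from d3 onwards overlapped ESCs or d2, which makes Cdh2 the member that was called against ESCs in all 9 sorted populations. The difference from ESCs was 4 ± 0.21 (SE) at d3 G+ with an adjusted p of 1.57e-15, and 2.88 ± 0.21 at d6 G+H+ with 7.7e-13, when Cdh1 was also at its highest. The other Cdh2 probe gave 3.93 and 2.82.

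Cdh11 encodes cadherin-11, an adhesion molecule of mesenchymal cells. Its brighter probe was not well above background on any array of ESCs or d2. It was at 6.19, 5.95 and 5.77 in d3 G-, at 8.71, 9.44 and 9.45 in d3 G+, and at 10.39, 9.90 and 9.93 in d4 G+. In d6 G+H- it was at 6.43, 7.86 and 6.27 and in d6 G+H+ at 5.78, 6.25 and 4.83, the last of them not above background. The Gsc-positive populations of d3 and d4 thus lay far above ESCs and above the G- arrays of their day. Against ESCs the brighter probe was at least 20.0-fold higher in d3 G+, at least 36.6-fold in d4 G+ and at least 39-fold in d5 Glow, with adjusted p values of 6.7e-08, 1.74e-09 and 1.19e-09. These bounds set the group mean against the dimmest signals that were above background in ESCs. Such bounds, here and below, are approximate, because a probe not above background can measure higher than that dimmest signal. On d6 G+H+ replicate 2, Zeb2 measured 5.35 without being above background, where the dimmest signal above background was 5.09. The measured value was used where it was the higher of them. The other Cdh11 probe was above background in ESCs, at 5.86 ± 0.14 (SD, n = 3), and rose less, by 1.29 at d3 G+ (adjusted p = 0.019), 1.93 at d4 G+ (0.000366) and 2.13 at d5 Glow (9.94e-05). The probes disagreed in d4 G-, where they gave 2.59 and -0.14, in d5 G- with 3.99 and 0.88, and in d6 G+H- with 2.33 and -0.09. The d4 G- call was also lost without d4 G- replicate 1 (adjusted p = 0.0185), and the d6 G+H- call without d6 G+H- replicate 2 (0.0257). Both were lost under a normexp offset of 50 (1.53 and 1.36) and without background correction (1.88 and 1.7, with adjusted p values of 0.0118 and 0.0123).

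Snai1 encodes Snail, the repressor of Cdh1 that acts at the primitive streak. It was at 7.75, 8.08 and 8.02 in ESCs and at 7.47, 6.83 and 7.40 in d2. In d3 G- it was at 9.49, 9.26 and 9.51 and in d3 G+ at 11.63, 12.33 and 12.59, the highest mean of the untreated populations. It then stood at 11.87, 12.15 and 12.03 in d4 G+, at 10.63, 10.53 and 10.86 in d5 Glow, at 10.67, 10.51 and 9.18 in d5 Ghigh and at 7.38, 7.88 and 7.95 in d6 G+H+. The level in d6 G+H+ overlapped that of ESCs. Against ESCs Snai1 rose 18.8-fold in d3 G+ (log2 difference 4.24 ± 0.34 SE, adjusted p = 1.23e-11), and against d2 31-fold (4.95, adjusted p = 5.86e-13). The rise of 1.56 in d5 G- was just past the threshold and fell under it or lost its p without ESC replicate 1 (1.46), d5 G- replicate 1 (1.27) or d5 G- replicate 2 (1.43), under a normexp offset of 50 (1.43), without background correction (1.47), with slide as a block (1.4) and with the compared groups alone (adjusted p = 0.0327). In d3 G- the rise of 1.47 was not called, and it was called without ESC replicate 2 (1.54) or d3 G- replicate 2 (1.55).

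Snai2, or Slug, is the Snail family member of neural crest and mesoderm, and it did not follow Snai1. Its group means ran from 5.17 in d6 G+H+, where no array was above background, to 7.03 in d5 Glow, and 0 of the comparisons called it. The arrays of d5 Glow were at 8.08, 7.63 and 5.38, so that replicate 3 lay below every ESC array and the others above them. Without d5 Glow replicate 3 its difference from ESCs was 1.68 with an adjusted p of 0.00126, and from d4 G+ 1.92 with 0.00642.

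Zeb1 and Zeb2 encode the paired zinc finger homeobox repressors of Cdh1. Zeb1 was at 7.39, 7.12 and 8.05 in ESCs, at 9.33, 9.25 and 9.03 in d4 G+, at 10.21, 9.71 and 9.05 in d5 Glow and at 6.20, 6.25 and 5.92 in d6 G+H+. Zeb2 was at 6.55, 6.68 and 5.78 in ESCs, at 8.98, 8.90 and 8.34 in d4 G+ and at 9.06, 9.08 and 7.74 in d5 Glow. No array of d6 G+H+ was above background for Zeb2, and 2 of 3 were in d6 G+H-. For both genes d4 G+ and d5 Glow lay wholly above ESCs and d6 G+H+ wholly below. Against ESCs Zeb1 rose by 1.68 in d4 G+ (adjusted p = 0.00428) and 2.13 in d5 Glow (0.00032), and Zeb2 by 1.89 in d3 G+ (0.00306), 2.4 in d4 G+ (0.000181) and 2.29 in d5 Glow (0.000333). The Zeb1 call in d4 G+ was lost without ESC replicate 1 (1.62, adjusted p = 0.0211), ESC replicate 2 (1.48, 0.0303), d4 G+ replicate 1 (1.62, 0.0206) or d4 G+ replicate 2 (1.66, 0.0159), and the Zeb2 call in d3 G+ without ESC replicate 3 (1.62, 0.0314) or d3 G+ replicate 2 (1.74, 0.0218). Under a normexp offset of 50 they were 1.48 and 1.47, and under scaling by the 75th percentile the latter had an adjusted p of 0.0189. In d5 Ghigh Zeb1 and Zeb2 were not called, and without replicate 3 of that population they were at 1.98 (0.00116) and 2.29 (0.000182). The other Zeb2 probe was above background on 6 of 42 arrays and differed from ESCs by 0.67 in d5 Glow (adjusted p = 0.159). With the mean of both Zeb2 probes in place of the brighter, d3 G+ was at 1.09 and d5 Glow at 1.48, both under the threshold of size.

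Twist1 was at 6.35, 6.79 and 6.60 in ESCs, at 9.11, 9.59 and 9.63 in d3 G+ and at 9.06, 9.5 and 9.18 in d4 G+. The d3 G+ and d4 G+ arrays lay above all others. Its difference from ESCs was 2.86 ± 0.21 (SE) in d3 G+ (adjusted p = 2.56e-12), 1.95 in d5 Glow (9.08e-09) and 1.68 in d5 G- (3.93e-07), the last of which was 1.44 without d5 G- replicate 1, 1.34 with a normexp offset of 50 and 1.45 without background correction. In d4 G- the difference was not called, although without ESC replicate 2 or d4 G- replicate 3 it was (1.55 and 1.58). Vim was bright throughout. It was at 12.54, 12.31 and 12.34 in ESCs, at 11.90, 11.07 and 11.71 in d2, at 14.83, 14.98 and 15.23 in d4 G+ and at 12.00, 12.08 and 11.18 in d6 G+H+. The d4 G+ arrays were far above those of ESCs, and the d6 G+H+ arrays lay below them. Vim rose 6.12-fold in d4 G+ against ESCs (2.61 ± 0.31 SE, adjusted p = 4.91e-08) and also 4-fold in d4 G- (adjusted p = 1.64e-05). In d3 G- it was called without replicate 2 of that population only (1.55, adjusted p = 0.00213).

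Each gene was also ordered over the 11 untreated populations, and the 100 pairs of neighbours in these orders were compared. The orders were made from the same means, so neighbours were close by construction. Few calls among them therefore do not show that the populations were alike, and the means of Cdh11 spanned 5.64. Only Cdh2 in d3 G- against d2 was called (1.73, adjusted p = 1.98e-06). Snai1 in d3 G- against d6 G+H- had an adjusted p of 0.00581 with a difference of 1.24, and every other pair of neighbours had an adjusted p above 0.01. The orders of Zeb1, Zeb2 and Snai2 ended in d6 G+H- and then d6 G+H+, and those of Cdh1 and Epcam began with d6 G+H+. Those of Snai1 and Twist1 began with d3 G+, and that of Cdh2 with d3 G+ and d5 Ghigh, both at a mean of 13.96.

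The comparison of sorted populations of 1 day asked how cells that had or had not switched on Gsc differed in these genes. Over the 6 comparisons 7 of 60 pairs were called, against 1.23% of all gene by comparison pairs. At d3 3 members were called in G+ against G- (1.74% of all genes), namely Cdh11 at 9.4-fold higher, Snai1 at 6.8-fold higher and Cdh2 at 3.38-fold higher. Their log2 differences were 3.23 ± 0.56, 2.76 ± 0.34 and 1.76 ± 0.21 (SE), with adjusted p values of 0.000213, 8.71e-07 and 8.22e-07. The other Cdh11 probe gave 1.5 with an adjusted p of 0.0195, which was not called. At d4 3 members were called (2.19% of all genes). Cdh11 was 7.8-fold higher (adjusted p = 0.000666), Snai1 was 3.92-fold higher (0.000199) and Cdh1 was 4.18-fold lower in G+ (0.00248). The Cdh1 call was lost without d4 G- replicate 2 (-2.1, adjusted p = 0.0104), d4 G- replicate 3 (-1.98, 0.0169) or d4 G+ replicate 1 (-1.58, 0.0596), and with the compared groups alone (0.018). The Cdh11 call at d4 had an adjusted p of 0.0105 under scaling by the 75th percentile, and the other Cdh11 probe gave 2.07 (0.000802).

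Markers of other cell types moved with these differences. The mesoderm mean was between 6.77 and 7.36 in d3 G- and between 9.14 and 9.33 in d3 G+, and between 7.23 and 8.14 in d4 G- and between 9.35 and 9.94 in d4 G+, with all 6 markers above background on every G+ array. The primitive streak mean was between 8.32 and 8.84 in d3 G- and between 11.55 and 12.58 in d3 G+, and between 9.14 and 10.34 in d4 G- and between 12.11 and 12.25 in d4 G+. The primitive streak list holds Gsc, by whose reporter these cells were sorted, so part of this difference was set by the sort. The pluripotency mean was lower in G+, between 10.03 and 10.23 against between 11.61 and 12.07 at d3 and between 8.82 and 9.68 against between 11.29 and 11.43 at d4. The definitive endoderm mean was between 6.61 and 7.05 in d3 G- and between 7.56 and 9.44 in d3 G+. At d4 it was between 7.29 and 7.58 in G- and between 8.78 and 9.54 in G+. The part of these lists in the result was not tested.

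With the replicate number as a block, 12 pairs were called in place of 7. Same-numbered arrays deviated together in the d3 and d4 comparisons and in d5 Glow against G-, where every pairwise correlation of deviations was over 0.1. The calls gained there were Zeb1 at d3 (1.53, adjusted p = 0.00673), and at d4 Zeb1 (1.6, 0.00413), Zeb2 (1.54, 0.00964) and Epcam (-1.71, 0.000193), and at d5 Epcam in Glow against G- (-1.64, 0.00113). In the fit without the block these differences had the same sizes. Twist1 in d3 G+ against G- missed the threshold of size, and it passed without d3 G- replicate 1 (1.57) or d3 G+ replicate 1 (1.64). Cdh2 at d4 passed without d4 G- replicate 2 (1.58).

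At d5 1 member was called in Ghigh against G- (2.48% of all genes), which was Cdh2 at 1.54 ± 0.21 (adjusted p = 8.19e-06). This call fell under the threshold of size without d5 G- replicate 3 (1.31), without d5 Ghigh replicate 3 (1.48) and with slide as a fixed block (1.45), and with the compared groups alone its adjusted p was 0.0206. In Glow against G- 0 members were called by limma (0.727% of all genes), where 7 had an unadjusted p under 0.05 and Cdh2, at a difference of 1.05, an adjusted p of 0.00468. Cdh1 was 1.6 lower in Glow than in G- with an adjusted p of 0.0514, and it was called without d5 G- replicate 1 (-2.09, adjusted p = 0.00514) or d5 Glow replicate 3 (-2.24, 0.00225). Without d5 G- replicate 1 Cdh11 (2.41, adjusted p = 0.00861) and Epcam (-2.14, 0.00987) were called too, and Epcam also without d5 Glow replicate 3 (-2.27, 0.00649). In Ghigh against Glow 0 members were called (0.251% of all genes) and 2 had an unadjusted p under 0.05, with differences between -0.75 for Zeb2 and 1 for Epcam. Whether G+ and G- cells differed more at d4 than at d3, tested as an interaction, called 0% of all genes and gave adjusted p values of 1 for all 10 members, of which 0 had an unadjusted p under 0.05. From d3 G+ to d5 Ghigh, each against G- of its day, the Snai1 difference was smaller by 2.15 ± 0.48 with an adjusted p of 0.0185, so that 0 members were called (0.543% of all genes) and 4 had an unadjusted p under 0.05. Over both interactions 0 of 20 pairs were called, against 0.272% over all genes. The Snai1 value passed without d5 G- replicate 3 (-2.57, adjusted p = 0.00301) or d5 Ghigh replicate 1 (-2.43, 0.00757), and with slide as a random block (0.00791).

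**Figure D2:**
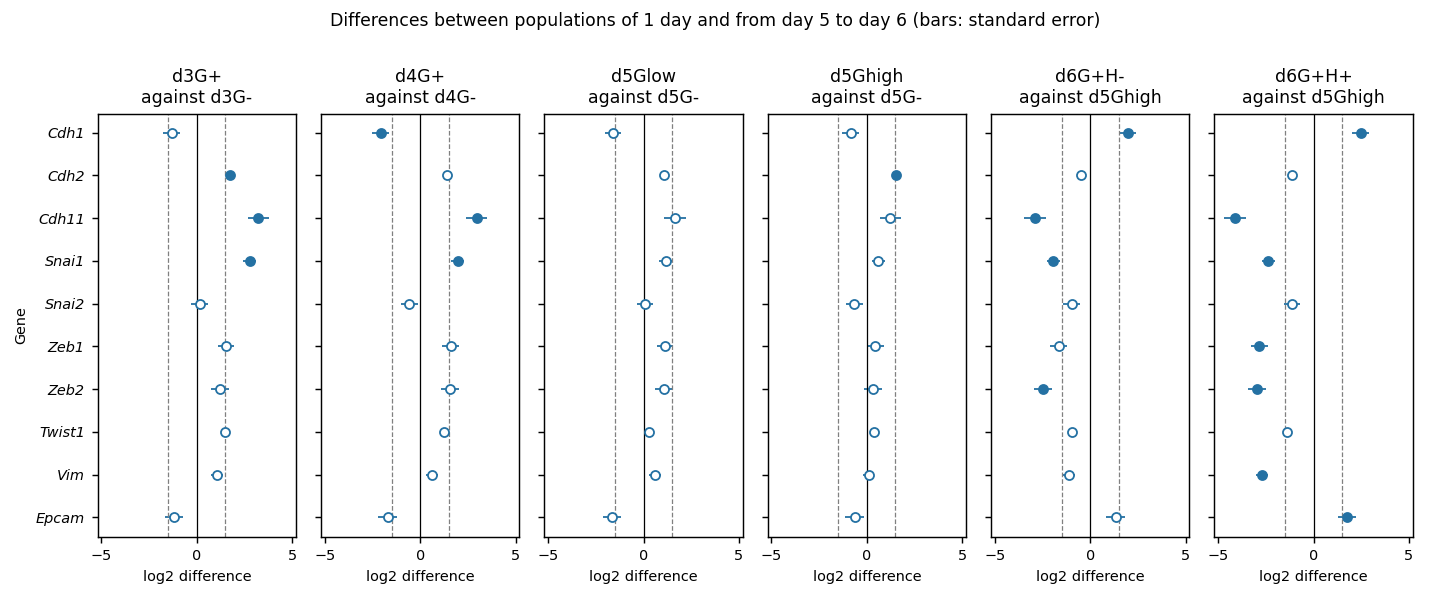
Log2 difference (horizontal axis) of each of the 10 genes (vertical axis) with its standard error in 6 comparisons, filled where the gene was called and with dashed lines at the threshold of 1.5 in either direction. In d3 and d4 Cdh2, Cdh11 and Snai1 lay to the right and Cdh1 and Epcam to the left, and from d5 Ghigh to d6 Cdh1 and Epcam lay to the right and the other 8 genes to the left.

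The steps between days asked when each change took place. Over 9 steps 21 of 90 pairs were called, against 1.58% over all genes. From d2 to d3 G- 3 members were called (1.27% of all genes), Cdh2, Snai1 and Vim, at 3.32-fold, 4.55-fold and 4.36-fold higher. Without d3 G- replicate 1 the Cdh2 difference was 1.49, just under the threshold, and with the compared groups alone the adjusted p of Vim was 0.0151. From d2 to d3 G+ 6 members were called (5.58% of all genes), and Cdh11, Zeb2 and Twist1 were added to these. Cdh11 was at least 21.3-fold higher at its brighter probe (adjusted p = 1.19e-07), while its other probe gave 1.28 with an adjusted p of 0.0249. Zeb2 was 4.4-fold higher (adjusted p = 0.00105, and 0.0101 without d2 replicate 2), and 1.27 on the log2 scale with the mean of both probes, under the threshold of size. From d3 to d4 0 members were called in G+ or in G- (0.0404% and 0.00898% of all genes), and 0 were called from d4 G- to d5 G- (0.0269%) or from d4 G+ to d5 Glow (0.13%). In these 4 steps 0, 2, 2 and 3 members had an unadjusted p under 0.05. With the 3 d5 arrays of replicate 3 left out, Cdh11 was called from d4 G- to d5 G- (2.17, adjusted p = 0.00918). From d4 G+ to d5 Ghigh 1 member was called (1.09% of all genes), Snai1, which fell by 1.89 (adjusted p = 0.000593). Without d5 Ghigh replicate 3 that change was -1.42 with an adjusted p of 0.0151, and with the compared groups alone the adjusted p was 0.0746.

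The step from d5 Ghigh to d6 carried 11 of these 21 calls. In d6 G+H- 4 members were called against d5 Ghigh (2.1% of all genes). Cdh1 rose 3.93-fold (adjusted p = 0.00334), while Cdh11 fell 7.4-fold (0.000824), Snai1 3.85-fold (0.000228) and Zeb2 5.61-fold (0.000588), the last measured above background on 2 of the 3 d6 G+H- arrays. In d6 G+H+ 7 members were called (4.01% of all genes). Cdh1 rose 5.51-fold (adjusted p = 0.000117) and Epcam 3.42-fold (0.00956). Cdh11 fell 17.4-fold (2.23e-06), Zeb1 7.18-fold (1.41e-05), Vim 6.49-fold (1.31e-07) and Snai1 5.21-fold (4.46e-06), and Zeb2 was at least 7.16-fold lower (2.45e-05). Cdh11 was above background on 2 of the 3 d6 G+H+ arrays. The Cdh1 and Epcam arrays of d6 G+H+ lay above all d5 Ghigh arrays, and those of the genes that fell lay below them. The other Cdh11 probe fell as well, by 2.06 in G+H- (adjusted p = 0.000763) and by 2.73 in G+H+ (6.39e-06). Between d6 G+H+ and G+H- 0 members and 0 genes in all were called (0% of all genes). Vim had the largest difference there, -1.6 with an adjusted p of 0.0834, which was -1.97 with 0.0077 without d6 G+H- replicate 3, and 4 members had an unadjusted p under 0.05.

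Single arrays decided several of the d6 G+H- calls. The Cdh1 rise was lost without d5 Ghigh replicate 1 (1.57, adjusted p = 0.0564), d5 Ghigh replicate 2 (1.78, 0.0351), d6 G+H- replicate 1 (1.9, 0.0268) or d6 G+H- replicate 3 (1.94, 0.014). The Zeb2 fall was -1.46 with the mean of both probes, under the threshold of size. The Cdh11 fall was lost without d5 Ghigh replicate 1 (-2.37, 0.0189), d5 Ghigh replicate 2 (-2.64, 0.012) or d6 G+H- replicate 1 (-2.67, 0.0123), and that of Zeb2 without d5 Ghigh replicate 1 (-2.06, 0.0142) or d5 Ghigh replicate 2 (-2.17, 0.0122). Among the d6 G+H+ calls only that of Epcam was lost in this way, without d5 Ghigh replicate 1 (1.55, 0.0649), d5 Ghigh replicate 2 (1.49, 0.0753), d6 G+H+ replicate 1 (1.82, 0.0265) or d6 G+H+ replicate 3 (1.48, 0.0695). Zeb1 in d6 G+H- differed by -1.65 and was not called. It was called with the replicate block (adjusted p = 0.00246) and without d5 Ghigh replicate 3 (-2.18, adjusted p = 0.00119). Same-numbered arrays deviated together in that comparison. With the compared groups alone in the fit, the calls of d6 G+H- had adjusted p values between 0.071 and 0.0999, and those of Cdh1, Snai1, Zeb2 and Epcam in d6 G+H+ were 0.0178, 0.0115, 0.0218 and 0.0523. That fit called 0 genes of the whole array in d6 G+H- against d5 Ghigh, where the main fit called 467. In d6 G+H+ against d5 Ghigh it called 437 genes, where the main fit called 893. The mean of 6 mesoderm markers moved with these genes, from between 8.17 and 10.08 on the d5 Ghigh arrays to between 7.33 and 7.87 in d6 G+H- and between 6.87 and 7.21 in d6 G+H+, where 4 of the 6 were above background on all arrays and Meox1 on none. The mean of 4 visceral endoderm markers was between 5.33 and 5.61 in d5 Ghigh, between 6.66 and 6.9 in d6 G+H- and between 7.18 and 7.59 in d6 G+H+, with 3 of the 4 above background on all d6 arrays and Afp on none. That of the primitive streak markers went from between 11.66 and 11.96 to between 10.37 and 11.09 and between 9.91 and 10.27. The part of these markers in the result was not tested.

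The 10 genes varied together between the arrays of the d5 populations. In d5 Ghigh, replicate 3 had Cdh1 at 12.24 against 10.26 and 10.67, Epcam at 10.31 against 8.87 and 8.76, Cdh11 at 8.23 against 10.77 and 10.23, Zeb1 at 7.91 against 9.64 and 9.36, and Zeb2 at 6.39 against 8.73 and 8.52. The direction was that of the d6 populations. Replicate 3 had the highest Cdh1 and Epcam and the lowest Cdh11, Snai2, Zeb1 and Zeb2 in all 3 d5 populations. The definitive endoderm markers had a mean of 12.77 on d5 Ghigh replicate 3 against 11.37 and 11.6, and the mesoderm markers 8.17 against 10.08 and 9.8, and their part in the spread was not tested. With the 3 d5 arrays of replicate 3 left out together, a choice made after their values were seen, Cdh1 (-1.92), Epcam (-1.71), Zeb1 (1.98) and Zeb2 (2.29) were called in d5 Ghigh against ESCs, with adjusted p values of 3.05e-05, 0.00113, 9.3e-05 and 9.29e-06. Zeb1 (1.62, adjusted p = 0.00165) and Zeb2 (1.75, 0.000632) were called in d5 G- against ESCs, and Snai2 in d5 Glow against ESCs (1.68, 3.89e-05) and against d4 G+ (1.92, 0.000242). In the steps to d6, Zeb1 (-2.18, 8.77e-05) and Epcam (1.83, 0.00152) were called in d6 G+H- and Snai2 (-1.56, 0.000199) in d6 G+H+, each against d5 Ghigh. Cdh1 was then also called in d5 Glow against G- (-1.82, adjusted p = 0.00548), while Cdh2 in d5 Ghigh against G- (1.26) and the fall of Snai1 from d4 G+ to d5 Ghigh (-1.42) were under the threshold of size. Over the deviations of all 33 untreated arrays from their group means, Pearson's r was 0.85 for Cdh1 with Epcam, -0.85 for Epcam with Zeb2, -0.8 for Cdh1 with Zeb2, -0.81 for Cdh1 with Cdh11 and 0.86 for Cdh11 with Zeb2. It was -0.46 for Cdh1 with Snai1. The spread was uneven between populations. The SD of Cdh1 was 0.92, 1.2 and 1.05 in d5 G-, Glow and Ghigh and 0.83 in d4 G+. It lay between 0.07 and 0.25 in the other untreated populations, and no r without the d5 arrays was computed. These values describe arrays that share slides, and no p is given. Over the 11 group means, r was -0.96 for Cdh1 with Zeb1, -0.95 with Zeb2 and 0.94 with Epcam, and 0.94 for Snai1 with Twist1.

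**Figure D3:**
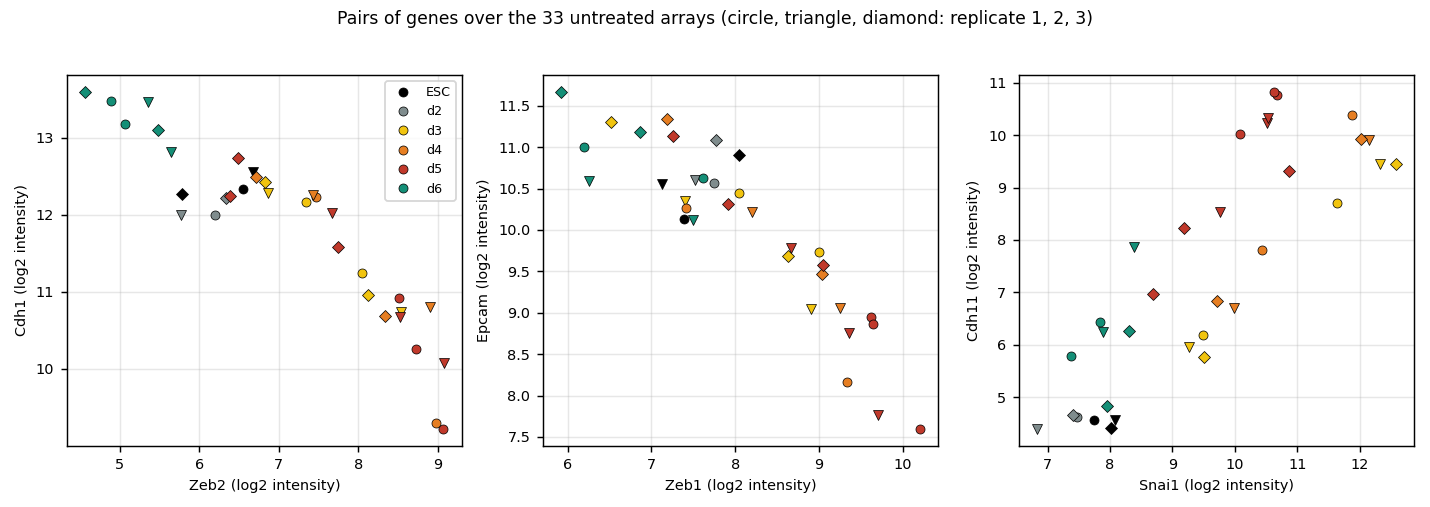
Log2 intensity of Cdh1 against Zeb2, Epcam against Zeb1 and Cdh11 against Snai1 on the 33 untreated arrays, coloured by day, with circles, triangles and diamonds for replicates 1, 2 and 3. Cdh1 and Epcam were lower on arrays with more Zeb2 and Zeb1, with the d6 arrays at the upper left of those panels, and several d5 arrays held high Cdh11 at lower Snai1 than the d3 and d4 G+ arrays did.

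The other genes of the pathway were taken as lists and counted, in d3 G+ against ESCs beside 2.79% of all genes higher and 3.58% lower. In d3 G+ against ESCs, 5 of 10 regulators that hold the epithelial state were lower and 0 higher, with a median log2 difference of -1.72 where that of all genes was 0.03. The largest were Klf4 (-4.06, adjusted p = 2.6e-09), Grhl2 (-3.06, 2.44e-08), Grhl1 (-2.44, 6.64e-10) and Grhl3 (-2.42, 3.61e-06). Klf4 is also a factor of naive pluripotency, and the grainyhead-like genes encode activators of epithelial junction genes. Of 22 genes of epithelial junctions and polarity 4 were lower and 1 higher, with Tjp3 (-3.59), Llgl2 (-2.32) and Crb3 (-2.06) down and the desmosomal plaque gene Dsp up (1.63), and the median was -0.45. Among 9 gastrulation EMT regulators 6 were higher and 0 lower, with a median of 3.36. Eomes, the T-box factor of the streak, rose by 6.28 (adjusted p = 1.14e-15), Fgf8 by 6.18 and Crb2 by 3.6, and Mesp1 was at least 287-fold higher. Of 6 TGF-beta ligands and receptors 3 were higher, Tgfb1 (3.35), Tgfbr3 (2.99) and Tgfb2 (2.67). Of 10 other EMT transcription factors 3 were higher, Lef1 (3.24), Sox9 (at least 3.92-fold) and Foxc1 (2.08), and of 19 other cadherins 2, Cdh4 (2.69) and Cdh6 (1.68). Among 16 genes of mesenchymal cytoskeleton and matrix 2 were higher, Col5a1 (2.13) and Fn1 (1.53). In d3 G- against ESCs (2.32% of all genes called) 2 of the 10 epithelial regulators were lower and 3 of the 9 gastrulation regulators higher. In d3 G+ against d3 G- (1.74% of all genes called) 3 of the 10 were lower, with a median of -0.73, and 3 of the 9 higher.

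In d6 G+H+ against d5 Ghigh 2.63% of all genes were higher and 1.37% lower. Of the 22 junction genes 7 were higher and 0 lower, led by Marveld2 (2.03, adjusted p = 0.000161), the desmosomal cadherin Dsc2 (1.88, 0.00387), Crb3 (1.87, 0.00467) and Marveld3 (1.77, 3.09e-05), and the median was 0.71 against -0.01 for all genes. Of the 10 regulators that hold the epithelial state 4 were higher, Grhl2 (2.31), the epithelial splicing regulators Esrp2 (1.92) and Esrp1 (1.63), and Grhl3 (1.6). Of the 9 gastrulation regulators 3 were lower, Mesp1 (-5.49), Crb2 (-2.04) and Fgfr1 (-1.7), as were Cdh4 (-2.14) and Cdh22 (-1.78) of the other cadherins and Lef1 (-2.11) of the other EMT factors. The mesenchymal list held 2 higher and 2 lower genes, with Acta2 (4.02) and Col1a2 (2.2) up and Col1a1 (-3.77) and Fbn1 (-1.63) down. With the compared groups alone in the fit, 1 junction gene and 0 epithelial regulators passed. Against ESCs, in the main fit, 1 of the 10 epithelial regulators was higher in d6 G+H+ and 3 were lower, with a median of -0.54. Of the 22 junction genes 5 were higher than in ESCs and 0 lower, where 10.8% of all genes were called.

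The EPZ6438 regimens asked whether inhibition of EZH2, the catalytic subunit of PRC2, changed these genes at d6. In ADE_EPZ against Control 5 of 10 members were called, where 2.65% of all genes were called. Cdh1 was at 11.04, 11.31 and 10.54 in Control and at 13.20, 12.94 and 13.20 in ADE_EPZ. Cdh11 was at 10.00, 9.95 and 10.30 in Control and at 7.03, 7.36 and 6.57 in ADE_EPZ. Zeb2 was at 9.09, 8.58 and 9.10 in Control and at 6.63, 6.90 and 6.17 in ADE_EPZ. In each of these the regimens did not overlap. Cdh1 was 4.43-fold higher (2.15 ± 0.44 SE, adjusted p = 0.000916). Cdh11 was 8.57-fold lower (adjusted p = 0.000231), Zeb2 5.12-fold (0.000696), Snai1 3.49-fold (0.000353) and Zeb1 3.21-fold (0.00845). Vim at -1.05 and Epcam at 1.39 had adjusted p values of 0.0228 and 0.0592 and were not called, and Twist1 differed by -0.03. Cdh2 differed by -0.43 (adjusted p = 0.248). Snai2, at 6.66, 6.45 and 6.22 in Control and at 7.59, 7.49 and 6.6 in ADE_EPZ, differed in the other direction from Snai1, Zeb1 and Zeb2, at 0.78 with an adjusted p of 0.347, and on the 3 slides by 0.15, 1.37 and 0.83. The other Cdh11 probe fell by 1.89 (adjusted p = 0.00127), and the other Zeb2 probe, near background, gave -0.66 (0.214).

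Each EPZ6438 slide held 1 array of every regimen, and on the 3 slides the ADE_EPZ to Control difference of Cdh1 was 1.89, 2.66 and 1.89, that of Cdh11 -3.38, -3.27 and -2.64, and that of Zeb2 -2.41, -2.47 and -2.18. Without Control replicate 3 the Cdh1 difference was 1.94 with an adjusted p of 0.0109. The Zeb1 call was lost without Control replicate 1 (-1.68, adjusted p = 0.0295), Control replicate 2 (-1.74, 0.0214), Control replicate 3 (-1.64, 0.036), ADE_EPZ replicate 1 (-1.65, 0.033) or ADE_EPZ replicate 3 (-1.49, 0.0551), and under scaling by the 75th percentile (0.0117). The mean of the definitive endoderm markers was between 11.37 and 11.83 in Control and between 12.52 and 12.89 in ADE_EPZ, and that of the mesoderm markers between 9.33 and 9.41 and between 8.02 and 8.59, with all 6 above background on every array of both. The 4 trophoblast markers had means between 7.76 and 8.41 in Control and between 9.21 and 9.64 in ADE_EPZ, and the 7 pluripotency markers between 7.73 and 8.1 and between 8.58 and 9.01. The 5 primitive streak markers were between 10.99 and 11.17 in Control and between 10.3 and 10.52 in ADE_EPZ. The ranges of the visceral endoderm, neural ectoderm and fibroblast lists overlapped. The part of these markers in the result was not tested.

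In ES_EPZ, treated before differentiation only, 0 members were called against Control by limma (0.408% of all genes) and 7 had an unadjusted p under 0.05. The share of 0.408% belongs to the call rule, and that of all genes at an unadjusted p under 0.05 was not computed. The arrays of Cdh1, at 12.88, 12.36 and 13.18, all lay above those of Control and those of Cdh11, at 8.09, 8.68 and 7.06, all lay below. The differences were 1.84 for Cdh1 (adjusted p = 0.0208), -2.14 for Cdh11 (0.0369), -1.58 for Zeb2 (0.0746) and -1.15 for Snai1 (0.0726). With slide as a random block Cdh1 (adjusted p = 0.00557) and Cdh11 (0.00825) were called. The direct comparison of ADE_EPZ with ES_EPZ called 0 members (0.126% of all genes) and 1 had an unadjusted p under 0.05. That member was Snai2, whose ADE_EPZ arrays all lay above those of ES_EPZ, at 6.49, 6.18 and 5.67, by 1.11 ± 0.44 (adjusted p = 0.363) and by 0.93, 1.1 and 1.31 on the 3 slides. Cdh11 differed by -0.96 ± 0.56 and Cdh1 by 0.3 ± 0.44, and no difference between the regimens passed the thresholds. Both comparisons share the Control arrays. In ADE_EPZ against Control 7 list genes passed, where 1.88% of all genes were higher and 0.772% lower. Of the 22 junction genes F11r (1.77, adjusted p = 1.2e-05) and Ocln (1.7, 0.00172) were higher. So were Grhl2 (2.14, 7.13e-05) of the 10 epithelial regulators and the receptor Tgfbr2 (1.64, 0.00311) of the 6 TGF-beta genes. Lef1 (-1.76, 0.000931) of the 10 other EMT factors, Cdh4 (-1.91, 2.09e-05) of the 19 other cadherins and Fn1 (-1.74, 0.00552) of the 16 mesenchymal genes were lower. Of the 9 gastrulation regulators 0 passed.

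**Figure D4:**
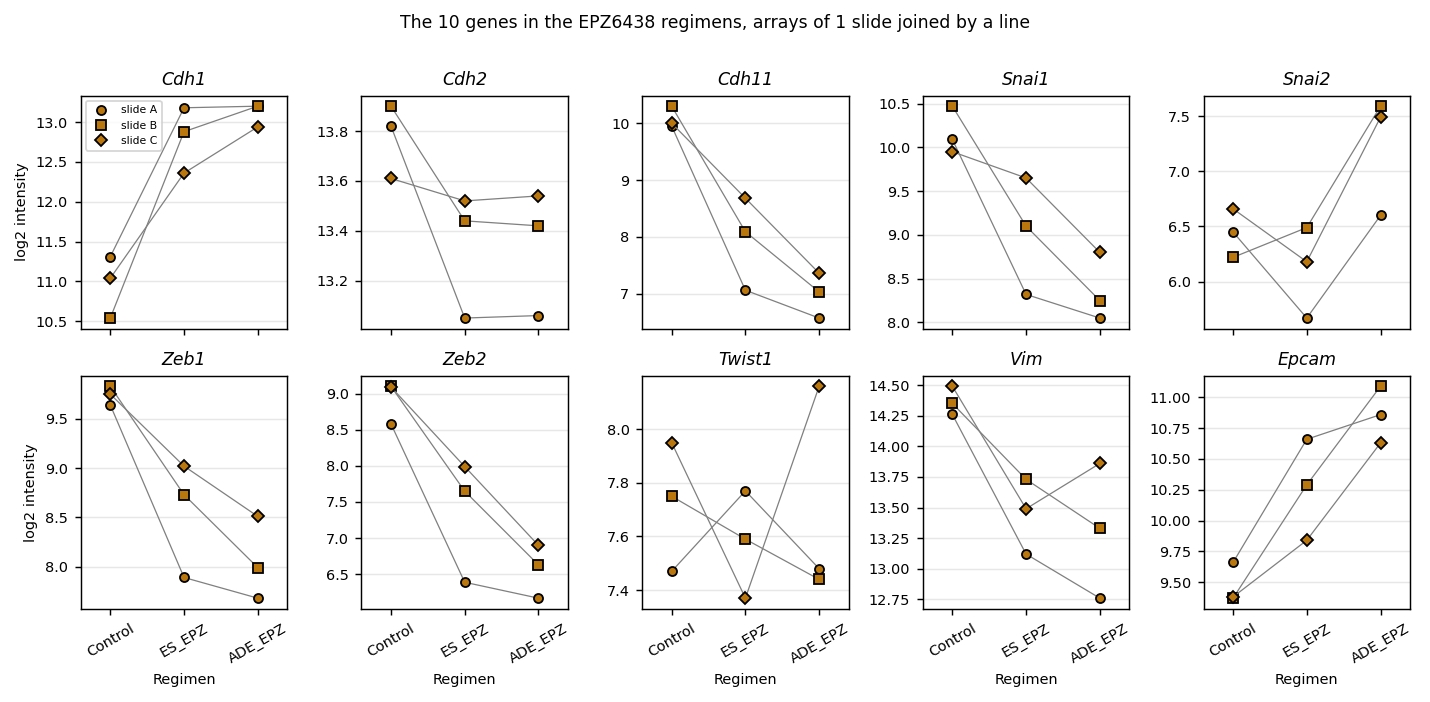
Log2 intensity (vertical axis, its range set for each gene) of the 10 genes in the Control, ES_EPZ and ADE_EPZ regimens, with the 3 arrays of a slide joined by a line. On all 3 slides Cdh1 and Epcam were lower in Control than in either EPZ6438 regimen, and Cdh11, Snai1, Zeb1, Zeb2 and Vim were higher in Control.

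Genes whose means over the 11 untreated populations were most like those of each member were sought among 4768 genes that span at least 1.5. The pair closest to Cdh1 was Mfsd6 (Pearson's r = 0.977) and Tnk1 (0.976), and that closest to Epcam was Bspry (0.984) and Slc7a7 (0.966). For Cdh2 it was Zfp202 (0.983) and Pcdh7 (0.982), and for Cdh11 Vstm2b (0.994) and Zcchc12 (0.988). Snai1 was closest to Mesp1 (0.989), a basic helix-loop-helix factor of nascent mesoderm, and Mgll (0.984). Snai2 was closest to Radx (0.953) and Fam162a (0.949), Zeb1 to Kif21b (0.971) and Anpep (0.966), and Zeb2 to Nfkb1 (0.985) and Sh3bp1 (0.981). Twist1 was closest to Cachd1 (0.978) and Msx3 (0.971), and Vim to Xirp1 (0.982) and Card10 (0.967). These are descriptions over 11 group means, with no p.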

How the data were processed

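Total RNA was hybridised to Agilent one-colour arrays. The deposited table holds log2 values, which the authors made with limma from median spot intensities by correcting the background with normexp (offset 10) and then normalising quantiles over all arrays, and the deposited scanner files give intensity values and quality marks. Recomputed values correlated with the deposited ones at 0.999989 or more. Spots marked as outliers were left out, spots of 1 probe were averaged, and the brightest of a gene's probes stood for it, named through RefSeq accessions. Samples were grouped by their labels. A mean per group was fitted over all 42 arrays with limma 3.58.1 (R 4.3.3), with Benjamini-Hochberg adjustment over 55681 probes in each comparison, and calls needed an adjusted p of at most 0.01 and a log2 difference of at least 1.5. The number of arrays limits the precision, and 0 spots were saturated.

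All 10 genes were named, together with up to 4 called genes of each list with the largest change in a comparison and the 2 genes most like each member. The members and lists were chosen with earlier results of these data known. The EPZ6438 arrays were read with a later version of the scanner software and a later annotation, which differs for 7.91% of probes, and untreated and EPZ6438 arrays were never compared. Alternatives covered background correction, scaling, filters, the arrays fitted, blocks for replicate number and slide, the mean of all probes, and each array left out. In 14 of 28 comparisons every pair of same-numbered arrays deviated together (r over 0.1). The main fit had no block, and the replicate block was run as an alternative only. The untreated arrays of replicate 3 were on slides of their own, so replicate number and slide set cannot be told apart for them. The main fit was tested on simulated arrays with independent noise, for ADE_EPZ against Control only. That test does not cover deviations shared by replicate number or slide.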

Additional observations from a re-analysis of the deposited data

How the results depend on the processing

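No direction of a called change was turned under any alternative run. Of 300 gene by comparison results, all 300 kept their side of the thresholds when recomputed from the scanner files, with quantile normalisation within each series, and with only probes above background. An offset of 50 lost 6 calls, no background correction 4, the mean of all probes 6, and the arrays of 1 series alone 1, while scaling by the 75th percentile lost 4 and gained 10. With the compared groups alone 15 calls were lost, and the calls in the steps between days fell from 21 to 11. Over the whole array this setting called 0 genes in place of 467 in d6 G+H- against d5 Ghigh. In d5 Ghigh against d4 G+ it called 6 in place of 242, and in ADE_EPZ against Control 609 in place of 590. The cause was not tested.

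With the replicate number as a block, the calls between populations of 1 day went from 7 to 12 and those of ES_EPZ against Control from 0 to 1, which was Cdh1 (1.84, adjusted p = 0.00639). Among comparisons where not every pair of same-numbered arrays deviated together, the block also called Zeb2 in d5 Ghigh against ESCs (1.54, adjusted p = 0.00259). It changed no call beyond the 9 it gained over the 300 results. Of 33 untreated arrays 25 were closest to one of their own number. With slide as a fixed block the counts were 12 for populations of 1 day and 1 for ES_EPZ, and with slide as a random block they were 11 and 2, and the interaction tests on G+ against G- gave 1. Leaving out the d5 arrays of replicate 3, chosen after seeing the data, gave 11 for populations of 1 day. This count includes the d3 and d4 comparisons, which hold none of the left-out arrays and could change only through the shared spread estimate. Among the d5 comparisons of 1 day, Cdh1 in Glow against G- was gained and Cdh2 in Ghigh against G- was lost. The cause was not tested.

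With 1 array left out at a time, calls against ESCs ranged from 39 to 45, those between populations of 1 day from 6 to 10, those in the steps between days from 17 to 22 and those of ADE_EPZ against Control from 3 to 5. Those interaction tests gave 0 to 1 calls, and ES_EPZ against Control and ADE_EPZ against ES_EPZ gave 0 throughout. All 69 calls in untreated populations had 1 sign in both slide sets. The calls were made on these same arrays, so equal signs were likely in advance and are no independent check. Values near background bound only what Cdh11, Zeb2 and Snai2 did in ESCs, d2 and d6.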
